A study of Mus musculus with 72 samples.

Results

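The regions described here are H3K27ac peaks of vehicle-treated mouse CD8+ T cells that were not listed when the cells were cultured without glutamine. H3K27ac, acetylation of lysine 27 of histone H3, was mapped at 48 h by CUT&RUN, in which an antibody guides a nuclease to cut out the chromatin that carries a mark. A peak of the vehicle list was taken as absent when it shared no base with any peak of the glutamine-free list, and as kept otherwise. Of 9681 vehicle peaks, 4331 (44.7%) were absent and 5350 were kept. The peaks were thus chosen by their measured presence in these 2 lists, so presence, signal and width are given as descriptions without a test, and the tests are on RNA counts, which the rule did not use.

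The cells came from spleens of OT-I mice, which carry a transgenic T cell receptor for SIINFEKL, a peptide of ovalbumin. Splenocytes were freed of red cells and activated with 10 ng/mL of this peptide and 100 IU/mL of IL-2, agents that all activated groups shared. Activated groups were cells in medium without glutamine, cells with DON at 1 µM, cells with CB-839 at 1 µM, and vehicle cells in complete medium, in which one group stood for the DMSO and the PBS vehicle. RNA was sequenced from each at 4 h, 24 h and 48 h, and from unstimulated cells, with 4 libraries in each of 13 groups. CUT&RUN had 2 samples per mark and condition at 48 h. Nothing in the labels says whether replicate letters stand for separate animals, and the spread behind each p-value is that of these libraries and may be technical.

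H3K27ac marks active promoters and enhancers. It is written by the acetyltransferases CBP and p300 with acetyl-CoA as the donor, and H3K27me3, the methyl mark of the Polycomb complex PRC2, occupies the same lysine on silenced genes. Glutamine feeds the tricarboxylic acid cycle and gives nitrogen to nucleotides, amino sugars and amino acids. An activated CD8+ T cell takes up large amounts of it while it grows and divides. DON is a glutamine analog that blocks enzymes using glutamine, and CB-839 inhibits glutaminase, the enzyme that turns glutamine into glutamate.

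The largest share of absent peaks lay at gene starts, so promoter sequences of 6 genes that changed most clearly or stand for a gene group below are shown. Each is the 250 bases before the RefSeq start on GRCm38.p6, read 5′ to 3′ on the gene's strand, and each lies wholly inside an absent peak and before the gene start of the count table as well. Capitals mark 3 motifs on either strand: the GC box GGGCGG bound by SP and KLF factors, the ETS core CCGGAA, and the CCAAT box CCAAT bound by NF-Y. Matches that share bases run together. The first 4 genes fell without glutamine and the last 2 rose.
Vcl, chr14:20929148-20929397, + strand: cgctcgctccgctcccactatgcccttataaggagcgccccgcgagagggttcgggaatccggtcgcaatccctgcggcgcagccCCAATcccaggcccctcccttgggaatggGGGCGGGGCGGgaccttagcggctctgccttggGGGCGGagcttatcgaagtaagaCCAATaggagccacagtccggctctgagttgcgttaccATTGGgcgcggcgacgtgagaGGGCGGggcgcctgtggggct
Pgk1, chrX:106186850-106187099, + strand: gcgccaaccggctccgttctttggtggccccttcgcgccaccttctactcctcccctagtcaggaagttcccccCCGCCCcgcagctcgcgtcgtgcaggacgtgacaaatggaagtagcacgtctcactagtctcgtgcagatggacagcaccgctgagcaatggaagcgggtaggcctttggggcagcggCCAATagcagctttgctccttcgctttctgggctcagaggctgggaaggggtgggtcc
Nolc1, chr19:46075597-46075846, + strand: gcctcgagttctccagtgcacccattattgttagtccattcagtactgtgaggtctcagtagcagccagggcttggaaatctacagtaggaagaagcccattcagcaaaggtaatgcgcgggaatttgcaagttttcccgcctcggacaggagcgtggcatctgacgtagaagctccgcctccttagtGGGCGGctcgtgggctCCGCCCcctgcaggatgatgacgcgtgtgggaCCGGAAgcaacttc
Plk1, chr7:122159185-122159434, + strand: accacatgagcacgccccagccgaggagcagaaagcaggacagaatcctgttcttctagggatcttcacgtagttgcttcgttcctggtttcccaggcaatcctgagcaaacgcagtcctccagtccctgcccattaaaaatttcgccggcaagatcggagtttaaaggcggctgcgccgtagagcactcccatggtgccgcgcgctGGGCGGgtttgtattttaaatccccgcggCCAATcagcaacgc
Irs2, chr8:11008930-11009179, - strand: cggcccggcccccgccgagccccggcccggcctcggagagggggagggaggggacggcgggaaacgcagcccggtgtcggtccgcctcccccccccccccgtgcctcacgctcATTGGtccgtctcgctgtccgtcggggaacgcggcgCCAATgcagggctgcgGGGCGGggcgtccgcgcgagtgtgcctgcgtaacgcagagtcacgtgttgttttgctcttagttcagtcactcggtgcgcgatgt
Sft2d2, chr1:165194439-165194688, - strand: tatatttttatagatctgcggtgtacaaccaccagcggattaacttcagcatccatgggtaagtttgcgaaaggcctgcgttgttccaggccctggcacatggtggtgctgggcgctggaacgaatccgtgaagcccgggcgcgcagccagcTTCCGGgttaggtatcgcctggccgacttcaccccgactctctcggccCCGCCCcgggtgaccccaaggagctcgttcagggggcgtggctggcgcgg

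These promoters had the make-up of CpG islands. The 250 bases held 24 CpG pairs at Vcl, 17 at Pgk1, 14 at Nolc1, 18 at Plk1, 34 at Irs2 and 21 at Sft2d2. Of the RefSeq windows that lay wholly inside a peak, the 2242 in absent peaks had a median GC content of 62.8% and the 3765 in kept peaks 61.6%, beside 52.4% over all 32807 windows. A GC box was found in 66.9% of windows in absent peaks, 59.5% of those in kept peaks and 32.7% of all windows. The ETS core was found in 30.6% of windows in absent peaks, 25.4% in kept peaks and 12% of all. A CCAAT box was about equally frequent in each, at 35.6% in absent peaks, 34% in kept peaks and 33.8% of all. Of 7 further motifs, the AP-1 site TGANTCA was found in 3.52%, 3.88% and 6.75%, the RUNX core TGTGGT in 9.63%, 10.4% and 14.0%, and the NF-kB site GGGNNTTCC in 6.74%, 6.64% and 4.97% of absent, kept and all windows. The tandem IRF pattern GAANNGAAA was found in 3.43% of absent, 5.29% of kept and 6.31% of all windows. The MYC E-box CACGTG was found in 9.23%, 8.45% and 6.02%, the CRE core TGACGT in 12.3%, 12.4% and 6.47%, and the TCF/LEF core CTTTGA in 9.77%, 9.35% and 13.8%, in the same order. The GC box, the ETS core, the E-box and the CRE core were more frequent, and the AP-1, RUNX, TCF/LEF and IRF patterns less frequent, in windows of both peak groups than in all windows. RefSeq windows matched 2172 of 3207 member symbols. A match is a match of letters, and the shares were not tested.

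The RNA libraries held 25.6 to 51 M counts. The depth of the CUT&RUN libraries is unknown, since the peak lists carry none. The 4 H3K27ac lists differed widely in length, with 6687 peaks in glutamine-free cells, 33 in DON cells, 117 in CB-839 cells and 9681 in vehicle cells, so a peak missing from a list was not detected at that list's threshold and is not shown to lack the mark. All 10 CD8 T cell markers were present, with a summed level of 3528 to 3636 CPM (counts scaled to library size) in glutamine-free and 4088 to 4981 CPM in vehicle libraries at 48 h. Cd4 averaged 0.0549 CPM in glutamine-free and 0.105 CPM in vehicle cells. B cell markers summed to 411 to 471 CPM in glutamine-free and 524 to 582 CPM in vehicle libraries, nearly all of it Ighm at 427 and 552 CPM. NK markers summed to 17.4 to 19.8 CPM without glutamine and 19.2 to 24.0 CPM with vehicle, myeloid markers to 4.23 to 5.34 and 2.51 to 3.80 CPM, CD4 T cell markers to 32.6 to 39.7 and 10.0 to 11.7 CPM (Zbtb7b averaged 32.5 CPM in glutamine-free and 4.97 CPM in vehicle cells), and erythroid markers to 0.108 to 0.490 and 0.297 to 0.390 CPM. The part of these markers in the results was not tested. None of the marker genes of any of these 6 lists had an absent peak at its start. At 48 h, vehicle replicate C stood apart over the genes as a whole. The chi-square per gene, larger where a pair of libraries differs more, was 137, 193 and 90.5 for its pairs with A, B and D. Vehicle pairs without it had 9.04 to 31.6. Glutamine-free replicate D stood apart less, at 15.9 to 22.6 in its pairs, against 3.25 to 6.01 in the others. Vehicle replicate C is part of every comparison at 48 h. Values without these libraries are given where they matter.

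Absent peaks were narrower and weaker than kept ones in the vehicle list. Their median width was 1571 bases (quartiles 1014.5 and 2332), against 2380 bases for kept peaks (quartiles 1569 and 3754). The authors' signal value, which is the sum of the 2 replicate values and belongs to each peak within its list, had a median of 8.89 in absent and 9.99 in kept peaks. The median was 4.55 in absent and 4.95 in kept peaks for one replicate, and 4.22 and 4.76 for the other. When all vehicle peaks were ranked by signal and divided into 4 bins of equal number, 63.6% of the weakest bin were absent, 51.4% and 41.4% of the middle bins and 22.5% of the strongest bin. By width the shares were 66.3%, 50.2%, 39.9% and 22.5%. Strength and width therefore went along with the rule, yet 544 peaks of the strongest bin were absent.

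**Figure D1:**
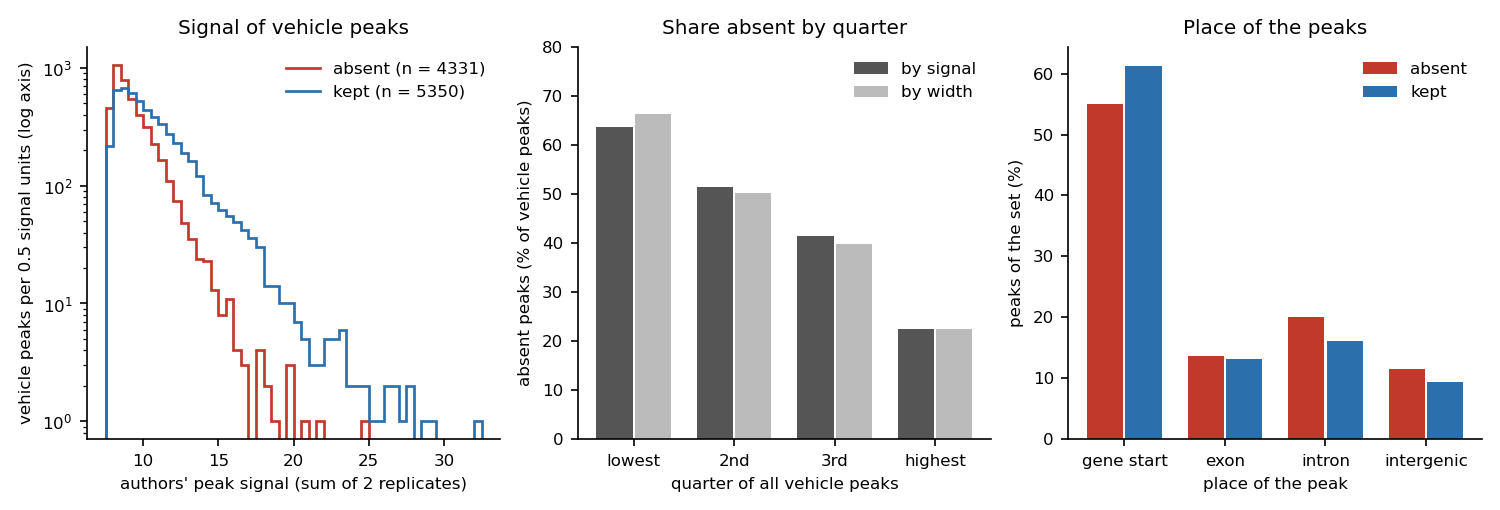
Left, number of vehicle H3K27ac peaks per 0.5 units of the authors' signal (log axis) for absent peaks and kept peaks. Middle, absent peaks as a share of vehicle peaks in 4 bins of equal number by signal and by width, with 63.6% and 66.3% in the lowest and 22.5% in the highest bin of each. Right, share of absent and kept peaks at gene starts (within 1000 bases), in other exons, in introns and between genes, with 55% of absent and 61.3% of kept peaks at gene starts.

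By place, 2382 absent peaks (55%) lay within 1000 bases of a gene start, 589 (13.6%) touched another exon, 865 (19.97%) lay in an intron and 495 (11.4%) between genes. Among kept peaks the shares were 61.3%, 13.1%, 16.2% and 9.38%. Within the strongest bin of signal, 21.4% of peaks at gene starts, 20.1% in exons, 27.8% in introns and 25.1% between genes were absent, so among strong peaks too the absent share was higher in introns and between genes than at gene starts. Over the autosomes and the X chromosome, the absent share ran from 38.6% on chromosome 12 to 51.6% on chromosome 5. Most absent peaks were far from any glutamine-free peak, at a median of 41894 bases, with 516 (11.9%) within 5000 bases and 41 within 1000 bases. At the edge of the rule, the nearest absent peak, at chr2:160737278-160743281, adjoined a glutamine-free peak with no base between, and the kept peak with the least overlap, at chr11:61656497-61663350, shared 48 bases. Their signals were 8.71 and 7.90.

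The strongest absent peak covered the start of Tnfaip8, a TNF-induced gene linked to cell survival, with a signal of 24.5. Its replicate values were 19.9 and 4.6, so one replicate carried most of it. The next were inside Arhgef10, a guanine nucleotide exchange factor (21.7, with 11 and 10.7 in the replicates), and Mapre2, a microtubule-binding protein (20.8, with 16.6 and 4.21). A 16328-base peak that overlapped Sik1, a salt-inducible kinase, at chr17:31833130-31849457, had a signal of 19.9 (4.09 and 15.8 in the replicates). It was also the widest absent peak. It lay 740 bases from a glutamine-free peak, and the start of Sik1 kept its own peak. The peak over Neat1, a nuclear long noncoding RNA, spanned 6914 bases with a signal of 17.9 (13.8 and 4.13 in the replicates). Among the genes of these strong peaks, Tnfaip8 had 59.9, 55.4, 55.5 and 60.3 CPM in glutamine-free libraries, against 94.4, 97.0, 90.6 and 91.1 CPM in vehicle libraries. Neat1 had 46, 46.1, 53.2 and 55.5 CPM in glutamine-free libraries, against 18.3, 18.6, 25.9 and 24.7 CPM in vehicle libraries. In neither gene did the groups overlap, and the directions were opposite: log2 fold change −0.68 ± 0.06 (SE) for Tnfaip8 and 1.21 ± 0.12 for Neat1. Mapre2 fell by 1.35 ± 0.07 on the log2 scale, Arhgef10 fell by 0.63 ± 0.16 and Sik1 did not pass the test (0.07 ± 0.06), though it did with library totals (0.17). In bulk RNA, fewer cells of a type and less RNA per cell cannot be told apart, here and in all that follows.

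The other deposited lists were compared with these peaks by the same overlap of at least 1 base. Of the absent peaks, 7 were in the CB-839 and 1 in the DON H3K27ac list, against 124 and 40 of the kept peaks, and those lists were too short to say more. H3K27me3 was listed at few vehicle H3K27ac peaks. It overlapped 50 absent (1.15%) and 13 kept peaks (0.243%) in vehicle cells and 25 (0.577%) and 4 (0.0748%) in glutamine-free cells. In CB-839 cells it overlapped 51 (1.18%) and 8 (0.15%), and in DON cells 15 (0.346%) and 2 (0.0374%). The H3K27me3 lists differed in length too, with 8795 peaks in glutamine-free, 3533 in DON, 12417 in CB-839 and 13556 in vehicle cells. Counts from different lists are therefore not on one footing. At 13 absent and 2 kept peaks H3K27me3 was listed in both vehicle and glutamine-free cells. Most of the 50 absent peaks thus had it in vehicle and not in glutamine-free cells. The reverse, H3K27me3 listed in glutamine-free and not in vehicle cells, was seen at fewer, 12 absent peaks and 2 kept peaks. The 12 held the starts of 10 genes, of which 7 were tested, and 3 of these were lower and 0 higher without glutamine at 48 h, where 26.3% of all tested genes were lower and 28% higher. These 3 were Hip1, which encodes a clathrin adaptor, Ddn, which encodes dendrin, and B130046B21Rik, which overlaps Ddn and shares counts with it. Socs2, a suppressor of cytokine signaling, was among the others, at a log2 fold change of −0.23 ± 0.11 that did not pass the test (edgeR adjusted p = 0.0737). The 3 lower genes were named after their values were seen.

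Gene starts within 1000 bases of an absent peak numbered 3210, of which 2429 (75.7%) are protein coding in RefSeq, and 736 absent peaks had 2 or more starts. Only 2 of these genes also had a kept peak there. A count filter left 2742 of them for testing at 48 h and 468 did not pass it. Their median level in TPM (counts scaled to gene length and library size) was 13.1 in glutamine-free and 11.8 in vehicle cells, and that of the 4780 genes with kept peaks alone was 15.7 and 13.3. Of the 2742 genes, 903 (32.9%) were lower and 717 (26.1%) higher in glutamine-free than in vehicle cells at 48 h by edgeR's quasi-likelihood test, beside 26.3% lower and 28% higher of all 16173 genes tested. Of 4054 tested genes with kept peaks alone, 24.7% were lower and 33.8% higher. The median log2 fold change was −0.04 at absent peaks, 0.06 at kept peaks and 0.02 over all genes. Changes were small at most of them: 78 (2.84%) were lower and 67 (2.44%) higher by at least 2-fold, beside 4.62% and 6.69% of all genes. The balance between rises and falls depended on scaling. With library totals in place of TMM factors, 672 were lower and 944 higher, beside 19.9% lower and 34.7% higher of all genes, whose median log2 fold change moved to 0.12. Relative to the median of all genes, the median at absent peaks was −0.06 with either scaling. This relative value could hardly differ, since a change of scaling moves the log2 fold changes of all genes by nearly the same amount. It is therefore no test of the scaling.

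**Figure D2:**
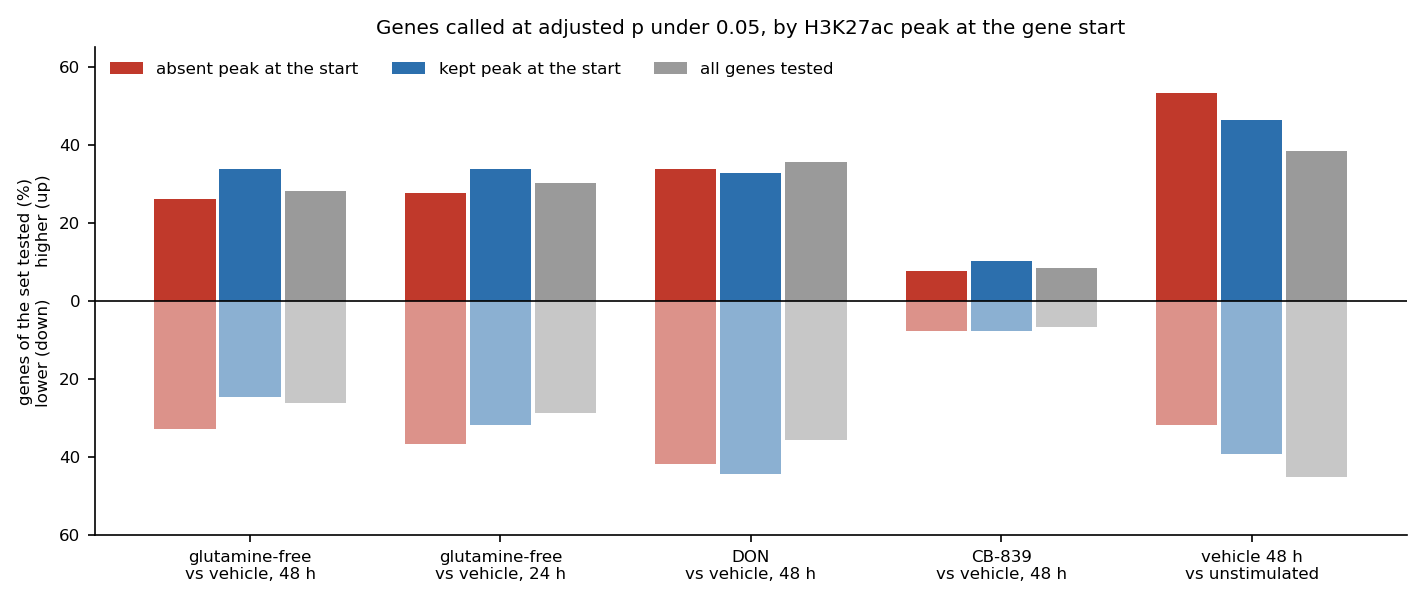
Share of tested genes that were higher (above 0) or lower (below 0, paler) at an adjusted p under 0.05, by edgeR with TMM scaling, for genes with an absent H3K27ac peak at the start, genes with kept peaks alone and all genes tested, in 5 comparisons, of which those at 48 h share vehicle libraries. For glutamine-free against vehicle at 48 h the absent group reads 26.1% higher and 32.9% lower, and all genes 28% and 26.3%.

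Calls differed little between weak and strong absent peaks, and the differences were not tested. In 4 bins of signal of equal number, from weakest to strongest, 31.7%, 32%, 34.5% and 33.5% of the tested genes were lower and 27.3%, 27.6%, 26.1% and 23.6% higher. Where an absent peak lay inside a gene whose start kept its peak, the counts ran the other way, with 113 (23.5%) lower and 196 (40.8%) higher of 480 tested genes. Where the start peak was kept and no absent peak lay in the gene, 887 (24.8%) were lower and 1173 (32.8%) higher of 3574. Where the start peak was absent and a kept peak lay elsewhere in the gene, 58 (29.7%) were lower and 75 (38.5%) higher of 195. Of all genes tested 26.3% were lower and 28% higher. These groups were not tested against each other.

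Here and below, rose and fell stand for an edgeR adjusted p under 0.05, and errors of fold changes are SE. Lipid genes were among the largest falls. Fads2, the delta-6 desaturase that makes polyunsaturated fatty acids, had 1.32, 1.52, 1.13 and 1.29 CPM in glutamine-free libraries, against 105, 98.2, 115 and 119 CPM in vehicle libraries. This is the largest fall among the genes that met the rule for naming, a log2 fold change of −6.37 ± 0.12 (edgeR adjusted p = 4.1e-17). Its absent peak, at chr19:10100462-10102344, had a signal of 8.99, near the median of absent peaks, and the nearest glutamine-free peak was 100432 bases away. Insig1, which holds the SREBP complex in the endoplasmic reticulum, had 32.8, 30.4, 31.4 and 28.9 CPM in glutamine-free libraries, against 122, 124, 121 and 127 CPM in vehicle libraries. The groups were far apart and tight within themselves in both genes, and the log2 fold change of Insig1 was −1.99 ± 0.06.

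The other large falls were in genes of adhesion, membrane and signaling. Vcl, which encodes vinculin of focal adhesions and whose promoter is shown above, had 2.85, 2.57, 2.88 and 3.12 CPM in glutamine-free libraries, against 13.8, 14.1, 10.6 and 15 CPM in vehicle libraries. The highest glutamine-free library lay far below the lowest vehicle library, with a log2 fold change of −2.22 ± 0.11, and 25.5% of the exon bases of Vcl are shared with Ap3m1, with reads counted without strand. Tspan2, a tetraspanin, fell by 2.94 ± 0.16 on the log2 scale. Lgals1, which encodes galectin-1, had 207, 210, 227 and 170 CPM without glutamine, against 701, 648, 1412 and 660 CPM with vehicle. Vehicle replicate C stood far above the other vehicle libraries, and without it the log2 fold change was −1.72, against −2.06 with all 4. Hip1 fell by 1.93 ± 0.11, Ddn by 1.85 ± 0.15 and F2rl3, the thrombin receptor PAR4, by 1.78 ± 0.12. Of these genes Vcl carried H3K27me3 in the vehicle and CB-839 lists, Hip1 in the glutamine-free list alone and Ddn in the glutamine-free, CB-839 and DON lists.

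Genes also rose at starts where the peak was absent. Psd, an exchange factor for the small GTPase Arf6, had 70.7, 66.9, 72.9 and 76.6 CPM in glutamine-free libraries, against 14.6, 14.7, 20.3 and 18.9 CPM in vehicle libraries (log2 fold change 2.08 ± 0.09, edgeR adjusted p = 1.8e-12). Relb and Nfkb2 encode the partners of the noncanonical NF-kB dimer. Relb had 122, 121, 120 and 113 CPM without glutamine, against 29.3, 28, 41.4 and 34.4 CPM with vehicle. Nfkb2 had 386, 376, 396 and 408 CPM, against 162, 152, 197 and 168 CPM. Both rose with no overlap between groups, by 1.85 ± 0.09 and 1.22 ± 0.06 on the log2 scale. Nfkb2 and Psd lie side by side on chromosome 19 and share exon bases, 18.1% of those of Nfkb2 with Psd and a predicted gene and 3.92% of those of Psd, so their counts are not fully separate. Sft2d2, a vesicle transport protein, rose by 1.85 ± 0.08 and Irs2, an adaptor of insulin and IL-4 receptors, by 1.65 ± 0.11, and their promoters are shown above. Irs2 had 25.5, 24.8, 25 and 24.9 CPM without glutamine, against 6.99, 7.06, 9.44 and 8.78 CPM with vehicle. Klhl24, a ubiquitin ligase adaptor, rose by 1.78 ± 0.10, Crebl2, a CREB-like factor, by 1.68 ± 0.09, Serinc5, a membrane protein that restricts retroviruses, by 1.59 ± 0.07 and Dgat2, which makes triglycerides, by 1.52 ± 0.09. H2-Q4, a class I MHC gene, rose by 1.41 ± 0.08, and since it belongs to a family of near-identical genes its counts are uncertain. Of these rising genes Psd carried H3K27me3 in the vehicle list alone and Dgat2 in the DON list alone.

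**Figure D3:**
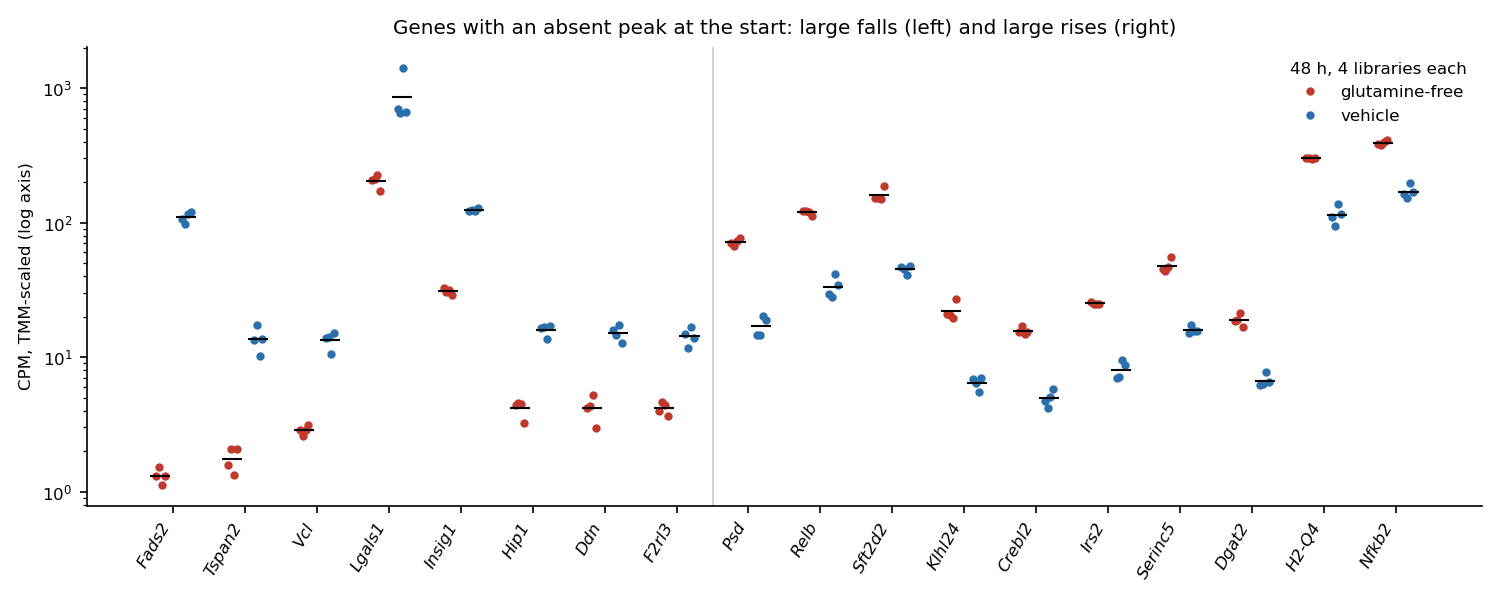
Level (CPM, log axis) of 8 of the 10 genes with the largest falls and of the 10 with the largest rises among genes with an absent peak at the start, in the 4 glutamine-free and the 4 vehicle libraries at 48 h; points are libraries and bars are means. The groups do not overlap in any of the 18 genes, which the rule for naming required.

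Lists of genes known for a pathway were read against the peaks. Of 16173 tested genes 17.0% had an absent and 25.1% a kept peak at the start. Among 22 genes of the respiratory chain and tricarboxylic acid cycle, 9 had an absent and 4 a kept peak. Among 21 genes of cholesterol and lipid synthesis, 8 had an absent and 6 a kept peak. Some lists of T cell genes were the reverse: of 24 genes of T cell receptor signaling 1 had an absent and 21 a kept peak, and of the 10 CD8 T cell markers 0 had an absent and 9 a kept peak. In other T cell lists absent peaks were more frequent: 5 of 23 genes of activation and costimulation and 6 of 26 cytokine receptor and JAK-STAT genes had an absent peak, with 14 kept in each. Among other metabolic lists, glycolysis had 3 absent and 8 kept of 20, and nucleotide and glutamine use 7 and 13 of 24. Over the 449 genes of all lists 16.5% had an absent and 44.8% a kept peak.

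All 8 cholesterol genes with an absent peak fell without glutamine, with a median log2 fold change of −1.26, and so did the whole list, 21 of 21 with a median of −1.35. Beside Insig1 they included Sqle, squalene epoxidase, with 67.3, 69.5, 70.5 and 69.0 CPM in glutamine-free libraries, against 156, 153, 154 and 159 CPM in vehicle libraries, and Cyp51 (−1.35 ± 0.06), Mvd (−1.18 ± 0.10), Sc5d (−1.04 ± 0.07) and Mvk (−0.84 ± 0.09), which encode further enzymes of the pathway. Every gene of the list fell, whether its start had an absent peak, a kept peak or neither, and with library totals all 8 with an absent peak were still called.

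Of the 9 respiratory genes with an absent peak, 6 fell and 0 rose, with a median log2 fold change of −0.31, beside 16 of 22 in the list. With library totals 4 of the 9 were called, and Cycs and Ndufb8 were not. Idh3a, a subunit of isocitrate dehydrogenase, had 153, 149, 144 and 149 CPM without glutamine, against 269, 274, 220 and 242 CPM with vehicle, a log2 fold change of −0.75 ± 0.07. Falls were smaller for Mdh2, malate dehydrogenase (−0.47 ± 0.08), Uqcrc1 of complex III (−0.47 ± 0.08) and Atp5a1 of the ATP synthase (−0.31 ± 0.06), and Cycs, cytochrome c, fell by 0.51 ± 0.17 and Ndufb8 of complex I by 0.31 ± 0.12. Sdha, Cox5a and Ndufa9 did not pass the test, at −0.09, −0.13 and −0.09.

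All 3 glycolytic genes with an absent peak fell. Pfkl, a subunit of phosphofructokinase, had 107, 111, 113 and 93.2 CPM without glutamine, against 355, 289, 417 and 361 CPM with vehicle (log2 fold change −1.73 ± 0.09). Pgk1, phosphoglycerate kinase, fell by 0.55 ± 0.06, and Gapdh by 0.99 ± 0.13, whose counts are uncertain because it has many processed pseudogenes. In the whole list 19 of 20 fell.

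Of 7 genes of glutamine, purine and pyrimidine use with an absent peak, 6 fell, with a median of −0.44, beside 14 lower and 4 higher of 24 in the list, with a median of −0.25. With library totals 5 of the 7 fell and Tyms lost its call (−0.10). They were Atic and Adsl of purine synthesis (−0.56 ± 0.05 and −0.44 ± 0.05), Cad, which starts pyrimidine synthesis (−0.29 ± 0.05), Rrm2 and Tyms, which make deoxynucleotides (−0.50 ± 0.05 and −0.20 ± 0.06), and Got2, the mitochondrial aspartate aminotransferase (−0.46 ± 0.05). In the list of ribosome biogenesis genes and MYC targets, all 6 with an absent peak fell, with a median of −0.61. In the whole list 22 of 26 fell, with a median of −0.32, and 5 of the 6 were called with library totals. Among them was the nucleolar factor Nolc1, with 592, 611, 590 and 542 CPM without glutamine, against 942, 918, 942 and 876 CPM with vehicle. Srm, spermidine synthase, fell by 0.73 ± 0.11. Of 8 replication and mitosis genes with an absent peak 7 fell, with a median of −0.31, beside 19 lower and 5 higher of 31 in the list, with a median of −0.28. They were led by the mitotic kinase Plk1, with 137, 137, 137 and 122 CPM without glutamine, against 231, 219, 249 and 236 CPM with vehicle. Birc5 (−0.54 ± 0.07), Ccna2 (−0.33 ± 0.05), which shares 12.5% of its exon bases with Exosc9, and Gins2 (−0.51 ± 0.07), which shares 67.3% with Gse1, were the next, and with library totals 6 of the 8 were called.

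**Figure D4:**
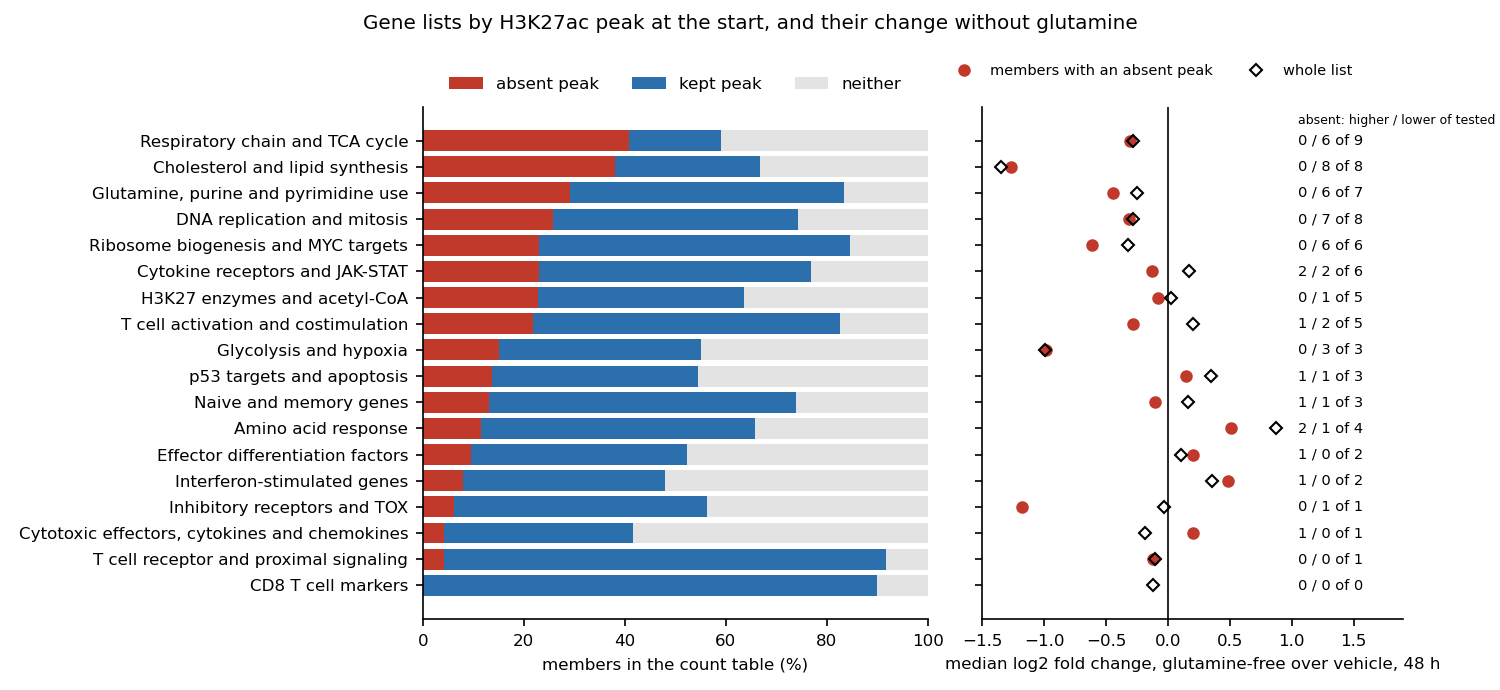
Left, share of the members of each gene list in the count table with an absent peak, a kept peak or neither within 1000 bases of the start. Right, median log2 fold change of glutamine-free over vehicle at 48 h for the tested members with an absent peak (filled) and for the whole list (open), with the number higher and lower of those tested; the cholesterol list reads 0 higher and 8 lower of 8, the respiratory list 0 and 6 of 9.

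Genes of T cell function with an absent peak moved in both directions. Ctla4, an inhibitory receptor, had 185, 187, 171 and 225 CPM in glutamine-free libraries, against 430, 467, 431 and 421 CPM in vehicle libraries (log2 fold change −1.18 ± 0.08), and it was the single gene of 16 in its list with an absent peak at the start. Il2rb, the IL-2 and IL-15 receptor beta chain, had 466, 470, 460 and 431 CPM without glutamine, against 863, 825, 861 and 876 CPM with vehicle (−0.90 ± 0.05). Cxcr3, a chemokine receptor of effector cells, had 26.4, 27.7, 23.4 and 19.8 CPM, against 58.8, 49, 54.9 and 59.6 CPM (−1.18 ± 0.09). All 3 were lower in every glutamine-free library. Il15ra, the alpha chain of the IL-15 receptor, went the other way, with 34, 35.6, 36.3 and 36 CPM without glutamine, against 15.1, 14.7, 19.1 and 15.9 CPM with vehicle (1.14 ± 0.07). Egr2, an early response factor of the T cell receptor, rose by 1.27 ± 0.09 to 12.7 to 13.9 CPM without glutamine, against 5.12 to 5.94 CPM with vehicle. Stat5a, which acts downstream of IL-2, rose by 0.56 ± 0.04 and Ifnar1, an interferon receptor chain, by 0.44 ± 0.07, while Tnfrsf1b, a TNF receptor, fell by 0.64 ± 0.06, Il10ra by 0.60 ± 0.08 and Jun by 0.32 ± 0.08. Vav1, the exchange factor that was the single T cell receptor signaling gene with an absent start peak, Tnfrsf4, Actn1 and Batf3 did not pass the test, at −0.12 ± 0.05, −0.28 ± 0.12, −0.10 ± 0.05 and −0.15 ± 0.17. Vav1 and Actn1 passed it without vehicle replicate C (−0.15 and −0.16), and Tnfrsf4 passed it without vehicle replicate A or B (−0.34 and −0.36). With every library in, Vav1 (−0.14) and Tnfrsf4 (−0.31) were called with RLE in place of TMM scaling and by DESeq2. Actn1 was called by DESeq2 (−0.12).

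Of 4 amino acid response genes with an absent peak, 2 rose and 1 fell. Slc7a5 and Slc3a2 encode the light and heavy chains of the large neutral amino acid transporter LAT1. Slc7a5 had 1055, 1088, 1104 and 950 CPM in glutamine-free libraries, against 623, 585, 583 and 658 CPM in vehicle libraries. Slc3a2 had 699, 719, 717 and 648 CPM, against 356, 325, 427 and 361 CPM. Both rose without overlap, by 0.79 ± 0.06 and 0.93 ± 0.07 on the log2 scale, and in the whole list 33 of 35 rose. Mars, the methionyl-tRNA synthetase, fell by 0.12 ± 0.05 and lost its call with library totals (−0.02) and without vehicle replicate A or D or glutamine-free replicate A or D (−0.10 to −0.12). Ddit4, an mTORC1 inhibitor, did not pass the test (0.23 ± 0.10) and passed it with library totals (0.33), where 3 of the 4 were higher and 0 lower, and without vehicle replicate C or D or glutamine-free replicate D (0.28 to 0.31). Of 5 genes of H3K27 enzymes and acetyl-CoA with an absent peak 1 fell, the PRC2-associated Phf19 (−0.17 ± 0.05), which lost its call with library totals (−0.07), and Ep300, which encodes p300, was at −0.08 ± 0.08. The coactivators Ncoa1 and Ncoa3 did not pass the test (−0.15 ± 0.09 and 0.10 ± 0.05), but Ncoa1 fell without vehicle replicate C (−0.27) and Ncoa3 rose with library totals (0.20). In the whole list 5 of 22 were lower and 6 higher. In 3 p53 target genes 1 rose (Zmat3, 0.78 ± 0.08) and 1 fell (Bid, −0.33 ± 0.06), while Pmaip1 did not pass the test (0.15 ± 0.10) and passed it without vehicle replicate B (0.25). Among the interferon-stimulated genes Isg20 rose by 1.17 ± 0.15 and Xaf1 did not pass the test. Ctsw, a protease of cytotoxic cells and the single gene of its list with an absent peak, rose by 0.21 ± 0.08. It kept its call without vehicle replicate C (0.31) and lost it without any of the other 7 libraries compared (0.13 to 0.23).

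Some genes held several absent peaks within their bounds. Bach2, a repressor that maintains naive and memory T cells, had 7 absent and 14 kept peaks, Nfatc1 6 and 2, Atxn1 6 and 7, and Fyn, a proximal kinase of the T cell receptor, 5 and 4. These 4 had a kept peak at the start. Bach2 had 44.8, 46.7, 46.7 and 48.6 CPM in glutamine-free libraries, against 35.8, 35.4, 26 and 34.1 CPM in vehicle libraries, and Fyn had 334, 326, 312 and 332 CPM, against 220, 207, 198 and 225 CPM. All 4 rose, by 0.51 ± 0.08 for Bach2, 0.24 ± 0.06 for Nfatc1, 0.86 ± 0.09 for Atxn1 and 0.62 ± 0.05 for Fyn. Sema4d, with 5 absent peaks, rose by 0.36 ± 0.07, Atp10a, a lipid flippase with 5, fell by 0.66 ± 0.06, and Mbnl1, a splicing regulator with 5, did not pass the test (0.30 ± 0.13) and passed it without vehicle replicate B (0.42) and with library totals (0.39). Tnfrsf1b and Tnfaip8, each with 5 and with the start peak absent, fell by 0.64 ± 0.06 and 0.68 ± 0.06. Ptk2b and Pvt1 also held 5 and did not pass the test (−0.05 ± 0.05 and 0.18 ± 0.08), and Tnfaip8, Ptk2b and Pvt1 were added here after their values were seen. Of the 89 tested genes with at least 3 absent peaks in or near them, 22 (24.7%) were lower and 35 (39.3%) higher, beside 26.3% and 28% of all tested genes.

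At 24 h, a day before the mark was measured, 1001 (36.8%) of 2721 tested genes with an absent peak were lower and 748 (27.5%) higher in glutamine-free than in vehicle cells, beside 28.9% and 30% of all 16269 genes. Of 4035 tested genes with kept peaks alone, 31.8% were lower and 33.7% higher. With library totals 794 of the genes with an absent peak were lower and 975 higher, beside 23.1% and 36.8% of all genes. Of the 903 genes lower at 48 h, 898 were tested at 24 h, where 621 were also lower and 50 were higher. Of the 717 higher at 48 h, 713 were tested at 24 h, where 454 were higher and 75 lower. Genes of cell division had large fold changes at 24 h. All 31 genes of the replication and mitosis list were lower then, with a median log2 fold change of −1.78. The 8 with an absent peak had a median of −3.58. Plk1 had a log2 fold change of −5.38 at 24 h and −0.80 at 48 h, Birc5 −3.88 and −0.54, Ccna2 −3.72 and −0.33, and Rrm2 −2.86 and −0.50. Ctla4 was at −2.91 at 24 h and −1.18 at 48 h. The change between times was not tested.

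DON and CB-839 were compared with the same vehicle libraries as glutamine-free medium, so the 3 sets of values are side by side and not independent. In DON cells at 48 h, 1146 (41.8%) of the 2742 genes were lower and 923 (33.7%) higher than in vehicle cells, beside 35.6% and 35.6% of all genes, and with library totals 829 were lower and 1243 higher, beside 26.4% and 44.6% of all. Among genes with kept peaks alone 44.5% were lower and 32.8% higher in DON cells. All 5 tested B cell markers (median log2 fold change 2.73) and all 3 tested myeloid markers (2.89) were higher with DON. Of 3 tested NK markers 2 were lower, and of 10 CD8 T cell markers 4 were higher and 4 lower. The part of these markers in the DON counts was not tested. In CB-839 cells 210 (7.66%) were lower and 212 (7.73%) higher, beside 6.73% and 8.5% of all genes. Without vehicle replicate C these counts were 365 and 305, without CB-839 replicate A 117 and 124, without CB-839 replicate B 140 and 141, and without CB-839 replicate C 129 and 145. Shares of all genes in these fits are not given beside them. The counts thus show how calls moved with the libraries used and are not a result about genes with an absent peak.

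The treatments differed at several of these genes. Slc7a5 had log2 fold changes of 0.79 in glutamine-free, −2.18 in DON and 0.53 in CB-839 cells over vehicle. The tRNA synthetase genes Tars and Lars were at 0.40 and 1.11 without glutamine, −1.52 and −1.58 with DON, and 0.34 and 0.47 with CB-839. All 9 of these values passed the test. Tspan2 fell without glutamine (−2.94) and rose with DON (1.45), Dgat2 rose without glutamine (1.52) and fell with DON (−2.24), and Stat5a was at 0.56 and −0.67. The cholesterol gene Insig1 fell in both, at −1.99 without glutamine and −2.05 with DON. With CB-839 Insig1 was at −0.12 and did not pass the test. Neat1 rose by 1.21 without glutamine, 3.37 with DON and 0.49 with CB-839. Differences between treatments were not tested.

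**Figure D5:**
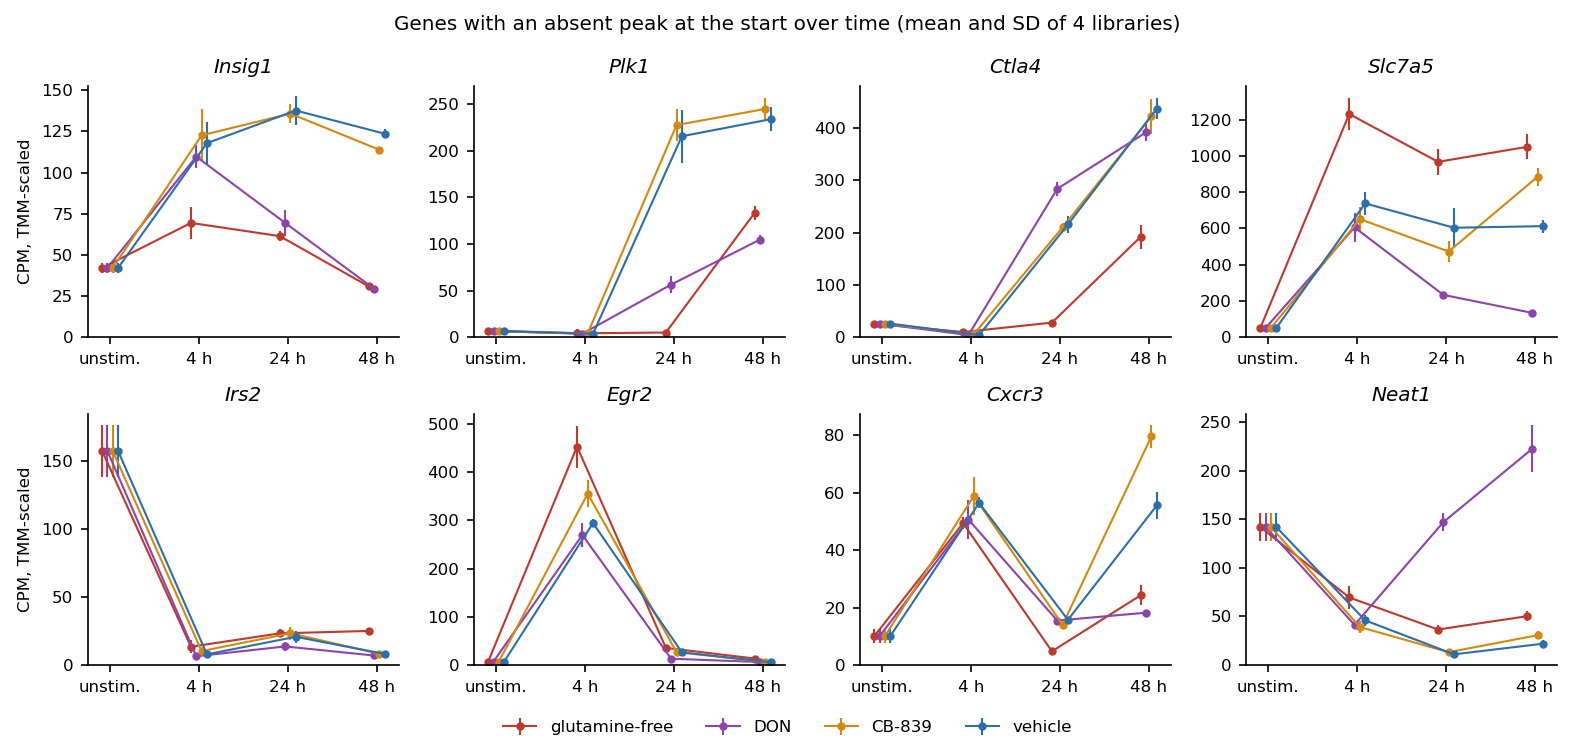
Level (CPM, mean and SD of 4 libraries) of 8 genes with an absent peak at the start in unstimulated cells and at 4 h, 24 h and 48 h in glutamine-free, DON, CB-839 and vehicle cells; every line starts from the same 4 unstimulated libraries. Insig1 ends at 30.9 CPM without glutamine, 29.4 CPM with DON, 114 CPM with CB-839 and 124 CPM with vehicle, and Slc7a5 ends above vehicle without glutamine and below it with DON.

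Genes with an absent peak were more often higher than lower after activation, with either scaling. Of B cell markers 10 of 11 tested were lower after activation (median log2 fold change −3.65). So were 9 of 9 myeloid (−5.28), 7 of 7 erythroid (−6.09) and 4 of 5 NK markers (−3.36). Of CD4 T cell markers 4 of 6 were lower and 1 higher, and of CD8 T cell markers 9 of 10 and 1 (−0.89). Change in cell make-up and change within cells cannot be told apart in the shares below. In vehicle cells at 48 h, 1471 (53.1%) of 2770 tested genes were higher and 879 (31.7%) lower than in unstimulated cells, beside 38.3% and 45.1% of all 18317 genes. Among genes with kept peaks alone 46.3% were higher and 39.2% lower, and among genes with no vehicle peak at the start 31.9% and 50.4%. Both peak groups were chosen by a peak in vehicle cells at 48 h, a group of this comparison. Their larger share of rises than over all genes is therefore a description and no test. The median log2 fold change was 0.35 at absent peaks, 0.11 at kept peaks and −0.16 over all genes. With library totals the counts at absent peaks were 1265 (45.7%) higher and 1121 (40.5%) lower, beside 32.3% and 52.2% of all genes. The median relative to that of all genes was 0.51 with either scaling, a value that a change of scaling could hardly move. Plk1 and Rrm2 rose by 5.02 and 5.14 on the log2 scale, and all 21 genes of the cholesterol list, the 8 with an absent peak among them, were higher. Irs2 (−4.44), Il6ra (−4.51), Jun (−4.22) and Klhl24 (−3.63) were lower in vehicle cells at 48 h than in unstimulated cells. Of these 4, Irs2, Klhl24 and Il6ra (log2 fold change 0.75) were higher without glutamine at 48 h and Jun was lower (−0.32).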

How the data were processed

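RNA was sequenced from 52 libraries and H3K27ac, H3K27me3 and IgG were mapped by CUT&RUN in 20 samples. Gene counts are as deposited by the authors, who ran featureCounts 2.0.1 in paired mode on GENCODE M25 exons with no strand option, per the file header, while the labels describe a stranded kit, so overlapping genes share counts. The 8 peak lists (mm10) are deposited as IDR broad-peak files of pairs of replicates at an IDR of 0.05; their signal values are the authors' sums of 2 replicate signals, and their scores and −log10 IDR values are as deposited. Which replicate is which is not given in the sources used here. Bowtie2, STAR, MACS2, FastQC and deepTools are named, per the submitters' processing notes.

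Peaks sharing at least 1 base counted as overlapping. Gene starts were the outermost exon base of each gene. Counts were tested with edgeR 4.0.16 in R 4.3.3 (TMM scaling, filterByExpr, quasi-likelihood test, Benjamini-Hochberg adjusted p under 0.05). The 4 groups of a time point were fitted together, and activation with its own fit of 16 libraries, with 16173 genes at 48 h, 16269 at 24 h and 18317 for activation. CPM are TMM-scaled over all 52 libraries, which held 25.6 to 51.0 M counts each. Replicates of a group differed by more than sampling noise. On counts simulated for glutamine-free against vehicle at 48 h (16173 genes), 94% of 1.5-fold and 100% of 2-fold rises were recovered. Of falls to 0.667-fold 92% were recovered and of falls to 0.5-fold 100%, and 2.53% of calls were false. The simulation changed only a small set of expressed genes, with equal numbers up and down. In the real comparison 28% of genes were higher and 26.3% lower, so these rates do not carry over to it.

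The members and gene lists were chosen with earlier results of these data known. Named genes were the 10 largest falls and rises among called genes whose mean log2 CPM reached 3 and whose groups did not overlap, up to 4 genes of smallest p per list, the genes of the 10 strongest absent peaks, the 8 genes with most absent peaks and the 4 strongest DON changes of opposite sign; other list members were added to complete a list, and B130046B21Rik after its value was seen. Promoter sequences are from RefSeq on GRCm38.p6. Sequence around peak centres was not analysed here, since no genome was used, and some genes of the lists are not reported here. The alternatives were other scalings, no count filter, DESeq2 1.42.0, a block for replicate letters, fits of 8 libraries, leaving out each library, and other overlap, window and IDR limits.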

Additional observations from a re-analysis of the deposited data

Results flagged for a closer look

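In groups of 4 libraries, 17 of 179 tests set one library apart from the other 3 by Dixon's criterion, which chance gives in about 1 of 20. Vehicle replicate C accounted for 6 of the 8 in vehicle cells: Lgals1 (1412 CPM), Nop16 (222 CPM) and Birc5 (253 CPM) were high, and Actn1 (137 CPM), Ifnar1 (54.2 CPM) and Atp10a (83.4 CPM) were low. Mars was low in replicate B (322 CPM) and Gm44699 high in replicate D (0.0905 CPM). Glutamine-free replicate D accounted for 7 of the 9 in glutamine-free cells: Sft2d2 (188 CPM), Pmaip1 (18.5 CPM) and Fam208a (24.9 CPM) were high, and Hip1 (3.21 CPM), Tnfrsf1b (66.8 CPM), Plk1 (122 CPM) and Ranbp3 (142 CPM) were low. Irs2 was high in replicate A (25.5 CPM, within a narrow range), as was Slc6a19os (0.0212 CPM, with the other libraries at 0). The source of these differences was not tested.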

How the results depend on the processing

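With vehicle peaks at an IDR of 0.025, 1495 of 3838 peaks (39%) were absent, and with glutamine-free peaks at that limit, which left 921 of them, 8829 were. The planned limit of 0.01 gave no value because no peak reaches it, and 0.025 was chosen after seeing the data. Of genes at the 1495 peaks, 294 (28.1%) were higher and 342 (32.6%) lower without glutamine at 48 h, beside 28% and 26.3% of all genes. At 24 h they were 296 (28.6%) and 378 (36.5%), beside 30% and 28.9%. With DON they were 347 and 445, beside 35.6% and 35.6% of all genes, and with CB-839 78 and 85, beside 8.5% and 6.73%. On activation they were 569 and 320, beside 38.3% and 45.1%. The genes are fewer by construction. The fit of the 8 CB-839 and vehicle libraries alone called 82 of the genes with an absent peak higher and 77 lower. A count given here without a share of all genes shows how calls moved with the setting. It is not a result about these genes. Leaving out 1 library at a time gave 643 to 767 higher and 845 to 998 lower without glutamine at 48 h, 648 to 699 and 950 to 1027 at 24 h, 889 to 997 and 1091 to 1200 with DON, 124 to 305 and 117 to 365 with CB-839, and 1447 to 1509 and 830 to 873 on activation. Shares of all genes moved too. For glutamine-free against vehicle at 48 h, 28.8% of all genes were higher and 27.3% lower when vehicle replicate C was left out. When glutamine-free replicate D was left out they were 25.1% and 23.7%. Same-letter libraries did not deviate together at 48 h (correlations from −0.33 to 0.35 between glutamine-free and vehicle). At 24 h they ran from 0.06 to 0.29, with each of 4 letters closest to its own, a hint from the data alone. The replicate block called 686 higher and 882 lower without glutamine at 48 h, 825 and 1077 at 24 h, 920 and 1129 with DON, 182 and 177 with CB-839, and 1471 and 870 on activation. Of 1218 repeats over 87 named genes 1177 kept direction and call, 22 lost and 19 gained a call, and 0 reversed a called direction. Peak depth is unknown, so a weak peak may be missing from a list without a loss of the mark.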
